A study of Mus musculus with 12 samples.

Results

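The clustered protocadherins are cell-surface proteins encoded by 3 neighbouring gene clusters, alpha, beta and gamma, on mouse chromosome 18. The members were the protein-coding genes whose symbols start with Pcdha, Pcdhb, Pcdhga, Pcdhgb or Pcdhgc in both deposited count tables, with names from GENCODE M21. This gave 57 genes of 56608 gene identifiers in the 2 tables together: 14 alpha, 22 beta and 21 gamma genes. The gamma genes comprise 12 A-type, 6 B-type and 3 C-type genes. One name, Pcdha11, belongs to 2 identifiers (ENSMUSG00000007440 and ENSMUSG00000102206), which were kept as separate members. The family was chosen by measured levels in these same libraries, led by the knockout over wild-type difference of Pcdhgb6 in AT2 cells and by tumour against adjacent lung, so its values in both comparisons are a description.

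In the alpha and gamma clusters, each gene has its own promoter and first exon, which encodes the whole extracellular part, the membrane span and the start of the tail. That exon is spliced to constant exons shared by the whole cluster, so all proteins of a cluster end in the same cytoplasmic tail. The beta genes have no constant exons and encode proteins with short tails. In neurons, where the family is best known, single cells use different sets of promoters, a choice that involves CTCF, cohesin and DNA methylation, while C-type promoters are used more uniformly. The proteins bind like partners on neighbouring cells and let a neuron tell its own branches from those of others. Epithelial cells and fibroblasts also express members, mostly of the gamma cluster.

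On GRCm38 the alpha cluster spans 36930184 to 37187661, the beta cluster 37264938 to 37524479 and the gamma cluster 37661793 to 37841873, all on the plus strand of chromosome 18. In the annotation, the alpha genes share 3 constant exons of 2860 bases and the gamma genes share 3 constant exons of up to 2119 bases. All 22 beta genes are a single exon. Reads from a constant exon cannot be assigned to 1 alpha or 1 gamma gene, and how the counting treated them is not given in the sources used here. A value for a single alpha or gamma gene is therefore less certain than one for a beta gene.

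The mice were of the C57BL/6 strain, and Med23, a subunit of the Mediator complex, was deleted in the T cells of those called knockout. The driver of the deletion is not given in the sources used here. Knockout mice 102, 217 and 224, aged 18 months, each gave 1 library from a spontaneous lung tumour and 1 from adjacent lung; no wild-type lung was analysed here. Alveolar type 2 (AT2) cells, the epithelial cells that make surfactant, were isolated by fluorescence-activated sorting from 3 wild-type mice (176, 177, 190) and 3 knockout mice (175, 179, 191) aged 6 months. The AT2 cells of knockout mice were not themselves the cells in which the label places the deletion.

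The lung libraries held 65163100 to 77951014 estimated counts and the AT2 libraries 15943084 to 18913242 counts. Levels are CPM (library-scaled counts per gene) after TMM scaling within each table, and levels from the 2 tables set side by side were not tested. Med23 stood at 21.0 to 31.5 CPM in adjacent lung, 18.3 to 36.8 in tumours, 34.4 to 46.4 in wild-type AT2 cells and 42.1 to 46.5 in knockout AT2 cells, which checks no label, since the deletion was in T cells. The 7 AT2 markers summed to 139136 to 176190 CPM in sorted cells, against 3.38 to 10.1 CPM for 6 endothelial, 0.439 to 1.21 for 7 fibroblast and 6.36 to 19.1 for 6 leukocyte markers. The 5 general epithelial markers summed to 2133 to 2527 CPM there, 6 AT1 markers to 1413 to 1870, 3 club cell markers to 507 to 726 and 5 ciliated cell markers to 33.9 to 65.2. Ager (827 to 1188 CPM) and Aqp5 (497 to 654) made up most of the AT1 sum. Hopx, Pdpn, Rtkn2 and Akap5 each stood at 18.2 CPM or less in the sorted cells. Mesothelial markers, and smooth muscle and pericyte markers, each summed to at most 2.18 CPM. Some libraries stood apart in how levels related to gene length. Across tested genes, the Spearman correlation of a library's deviation with exon length was -0.248 and -0.219 in the tumour and adjacent libraries of mouse 217, against 0.0725 to 0.231 in the other 4 lung libraries. It was -0.174 and -0.219 in wild-type AT2 libraries 176 and 177, against 0.0954 to 0.157 in the knockout libraries and 0.309 in wild-type 190. The members are long, with a median exon length of 4727 bases among those tested in lung, against 3516 for all genes tested there.

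Sorted AT2 cells carried RNA of the gamma cluster, next to none of the beta cluster and none detected of the alpha cluster. No alpha gene had a count in any AT2 library, 0 of 104045976 counts in all, which allows the alpha cluster up to 0.0289 CPM over the 6 libraries by counting error alone. The 22 beta genes together took 156 counts in the 6 libraries, and 12 of them had none. The gamma genes took 14535 counts, and every one of the 21 was detected. By library, 20 to 23 of the 57 members reached 10 counts.

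Lung tissue expressed the beta cluster as well. In adjacent lung the beta genes summed to 58.0 ± 13.7 CPM (SD, n = 3) and the gamma genes to 155 ± 85.2. The alpha genes summed to 8.44 ± 8.57 CPM in adjacent lung, nearly all of it Pcdhac2 in mice 102 and 217 (92.1% and 98.3%). In tumours the beta genes summed to 51.0 ± 16.2 CPM, with 33.1 to 64.7 CPM by library, and in sorted AT2 cells to 0.302 to 4.42 CPM. Between 39 and 45 members reached 10 counts in a lung library, and 4 alpha genes (Pcdha3, Pcdha5, Pcdha6 and Pcdha7) were listed at 0 in all 6.

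**Figure D1:**
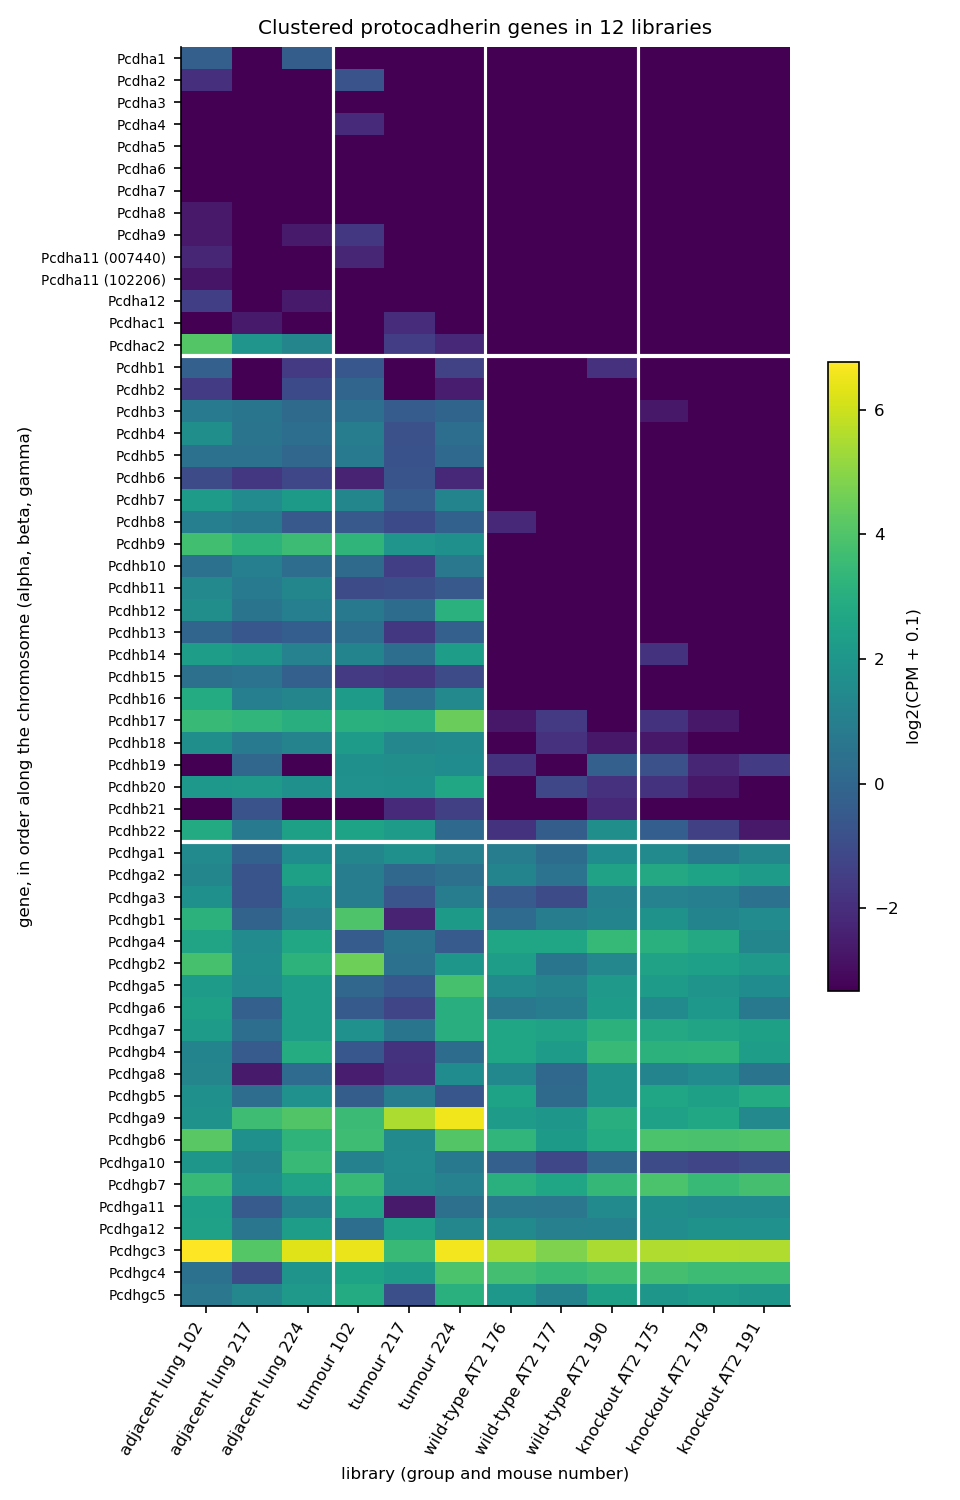
Level of each of the 57 members (rows, in order along the chromosome) in each of the 12 libraries (columns, by group and mouse number), as log2(CPM + 0.1). The alpha rows and nearly all beta rows are at the floor in AT2 cells, the beta rows are filled in tumours and adjacent lung, and the gamma rows are filled in all 4 groups, with Pcdhgc3 the highest in every library but tumour 217.

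Per kilobase of exon, Pcdhgc3 led the gamma cluster in both tables. This C-type gene, known for its part in the branching of cortical dendrites, stood at 7.80 CPM per kilobase over the AT2 libraries and 12.1 over the lung libraries. In AT2 cells it was followed by Pcdhgb6 (2.39 CPM per kilobase), Pcdhgb7 (2.29), Pcdhgc4 (2.24) and Pcdhga4 (1.41). In lung it was followed by Pcdhga9 (5.47), Pcdhgb6 (2.23), Pcdhgb2 (1.87) and Pcdhgb7 (1.25). These are means over both groups of a table, and the order below Pcdhgc3 differed between groups. Pcdhgb6 was next in knockout AT2 cells (3.25 CPM per kilobase) but below Pcdhgc4, Pcdhgb7 and Pcdhga4 in wild-type cells (1.53). Pcdhga9 was next in tumours (9.03) but below Pcdhgb6 in adjacent lung (1.90 against 2.17). Among beta genes, Pcdhb9 led in adjacent lung (3.71 CPM per kilobase, with Pcdhb17 at 2.08) and Pcdhb17 in tumours (2.75, with Pcdhb9 at 1.81). Over all lung libraries, dividing the same CPM by unshared exon length alone put Pcdhb12 between them (2.66, against 2.76 for Pcdhb9 and 2.42 for Pcdhb17). The 5 leading gamma genes were the same in each table when CPM was divided by the exon length that no other gene shares. Pcdhgb7 then stood above Pcdhgb6 and Pcdhga4 above Pcdhgc4 in AT2 cells. Reads were not recounted, so any reads from shared exons stayed in these values and only the length changed.

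The AT2 comparison asks how AT2 cells of the knockout mice differed from those of wild-type mice before tumours formed. No member passed the test in AT2 cells, and neither did any other gene. Among the 3 gamma types, the B-type genes had the largest ratio between group means: their summed level was 50.1 ± 3.21 CPM in knockout and 30.9 ± 9.97 CPM in wild-type cells (SD, n = 3), 1.62-fold. That sum includes Pcdhgb6, whose difference led the choice of the family, with means of 15.2 and 7.18 CPM. The A-type sum was close between groups, at 41.4 ± 9.19 and 38.8 ± 15.4 CPM, and the C-type sum was 64.3 ± 1.21 against 54.5 ± 11.7 CPM.

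The B-type sums by library were 53.7 (175), 47.6 (179) and 48.9 (191) CPM in knockout cells and 35.9 (176), 19.4 (177) and 37.3 (190) CPM in wild-type cells. All 3 knockout libraries were above all 3 wild-type libraries, and wild-type 177 was far below the others. The whole gamma cluster summed to 166, 158 and 143 CPM in knockout 175, 179 and 191 and to 129, 87.6 and 156 CPM in wild-type 176, 177 and 190. Here the groups overlapped, since wild-type 190 stood above knockout 191. As a share of gamma RNA, the B-type genes made up 30.0% to 34.2% in knockout and 22.1% to 27.8% in wild-type libraries.

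Pcdhgb6 (ENSMUSG00000103088, chromosome 18, 37742094 to 37841873 on GRCm38) is the B-type gene that led the family. Its level was 15.0 (175), 14.7 (179) and 15.9 (191) CPM in knockout cells, and 9.76 (176), 4.47 (177) and 7.29 (190) CPM in wild-type cells. The knockout libraries lay within a narrow band above all wild-type libraries. The log2 fold change was 1.08 ± 0.26 (SE), with an unadjusted p of 0.00128 and an adjusted p of 0.984 by edgeR's quasi-likelihood test over 14053 genes. Over left-out libraries the estimate of Pcdhgb6 ranged from 0.83 (without wild-type 177) to 1.37 (without wild-type 176). Without the filter on low counts, which tests 26038 genes, its adjusted p was 0.00403; it was 0.161 by DESeq2 and 0.394 to 1.0 when single libraries were left out.

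The 6 tested B-type genes, Pcdhgb6 included, had estimates from 0.04 to 1.08 with a median of 0.75, against a median of -0.01 over all genes tested. The family was chosen by levels in these same libraries, led by Pcdhgb6, so no estimate here is support for a B-type pattern. These genes also share constant exons, so their values may not be independent of each other. The estimates of the B-type genes other than Pcdhgb6 were 0.72 (Pcdhgb1), 0.78 (Pcdhgb2), 0.04 (Pcdhgb4), 0.86 (Pcdhgb5) and 0.68 (Pcdhgb7). Pcdhgb7 stood at 14.8, 11.3 and 13.8 CPM in knockout 175, 179 and 191, and at 8.47, 5.96 and 10.4 CPM in wild-type 176, 177 and 190. Again no wild-type library reached the lowest knockout library. Pcdhgb5 was at 6.13, 5.21 and 7.24 CPM in knockout cells and 5.65, 1.03 and 3.56 CPM in wild-type cells in the same order (0.86 ± 0.45), with wild-type 176 inside the knockout range; the estimate was 1.43 without that library and 0.43 without wild-type 177. Pcdhgb4 had nearly equal means, 7.59 ± 2.45 and 7.40 ± 3.52 CPM.

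The A-type genes went both ways in AT2 cells, 7 with an estimate above 0 and 4 below among the 11 tested, with a median of 0.21. Pcdhga2 had the largest, 0.92 ± 0.43, at 6.72, 5.76 and 4.70 CPM in knockout and 2.24, 1.32 and 5.51 CPM in wild-type cells. Wild-type 190 was inside the knockout range, and the estimate was 1.69 without that library and 0.56 without wild-type 177. At the other end, Pcdhga4 was at 8.30, 6.75 and 2.41 CPM in knockout and 6.00, 5.96 and 10.7 CPM in wild-type cells (-0.37 ± 0.40), with wide overlap. Pcdhga9 was at 5.32, 6.48 and 2.59 CPM and at 4.65, 3.96 and 8.09 CPM (-0.21 ± 0.37), also overlapping, and its estimate turned positive without wild-type 190 (0.16) or knockout 191 (0.08). Pcdhga10 was too low to be tested, at 0.329 to 0.919 CPM, and has no exon base that is free of other annotated genes.

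Among the C-type genes, Pcdhgc3 made up 28.1% to 33.0% of gamma RNA in every AT2 library. It stood at 46.7, 48.9 and 47.2 CPM in knockout and 42.6, 27.9 and 44.2 CPM in wild-type cells (0.32 ± 0.18, or 0.13 without wild-type 177). The groups did not overlap, but wild-type 176 and 190 were within a few CPM of the knockout libraries. Pcdhgc4, which in neurons supports cell survival, was even across all 6 libraries, at 13.7, 12.0 and 12.0 CPM in knockout and 13.3, 11.0 and 13.2 CPM in wild-type cells, and its estimate of 0.01 ± 0.18 turned to -0.08 without wild-type 177 and -0.06 without knockout 175.

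The beta genes were near the limit of detection in AT2 cells, and wild-type 190 held 77 of their 156 counts. Pcdhb22, the gene at the 3′ end of the cluster, was the only beta gene tested there. It had 0.701, 0.274 and 0.0603 CPM in knockout cells and 0.176, 0.688 and 3.16 CPM in wild-type cells (-1.93 ± 0.96, or -0.32 without wild-type 190). Wild-type 190 alone stood high. Pcdhb19 was at 0.467, 0.110 and 0.241 CPM in knockout 175, 179 and 191 and at 0.746 CPM in wild-type 190, 0.176 in 176 and 0 in 177. Pcdhb20 was at 0.175 and 0.0549 CPM in knockout 175 and 179, 0.344 and 0.172 CPM in wild-type 177 and 190, and 0 in the other two libraries. Neither showed a split between the groups.

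**Figure D2:**
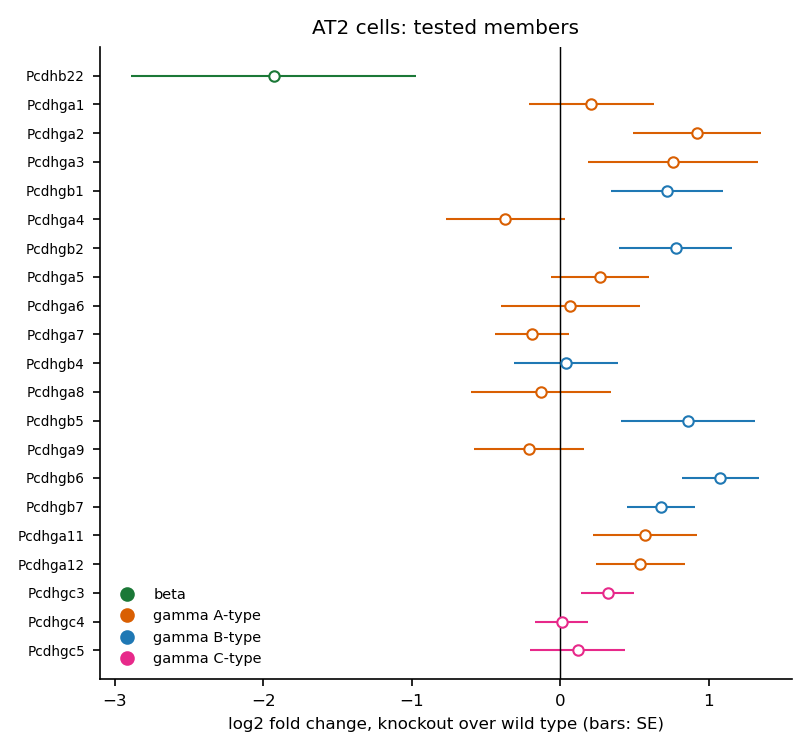
Log2 fold change of knockout over wild-type AT2 cells for the 21 tested members, in order along the chromosome, coloured by type, with bars for the SE. Open circles mark members that did not pass the test, which is all of them; the 6 B-type genes lie between 0.04 and 1.08.

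In all, 21 members were tested in AT2 cells, 20 of them gamma genes and 16 with an estimate above 0, beside 48.9% of all genes. None was called higher or lower, and 0.0% of the 14053 genes tested were. Of those genes 347 (2.47%) had an unadjusted p under 0.05. DESeq2 called no member and 0.00712% of all genes, and limma-voom likewise none and 0.0%. The fit without the filter called 1 member, Pcdhgb6, and 0.0653% of its genes. The knockout group was wholly above the wild-type group for 5 tested members (Pcdhgb1, Pcdhgb6, Pcdhgb7, Pcdhga12 and Pcdhgc3), beside 4.19% of all genes tested, and wholly below for 0, beside 4.11%. The length trend described above was lowest in wild-type 176 and 177 and highest in wild-type 190, and its part in these differences was not tested. Markers of Schwann cells summed to 9.06 to 11.1 CPM in knockout and 10.8 to 15.4 CPM in wild-type libraries with Sox10 and Cdh19 at 0 in both groups.

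**Figure D3:**
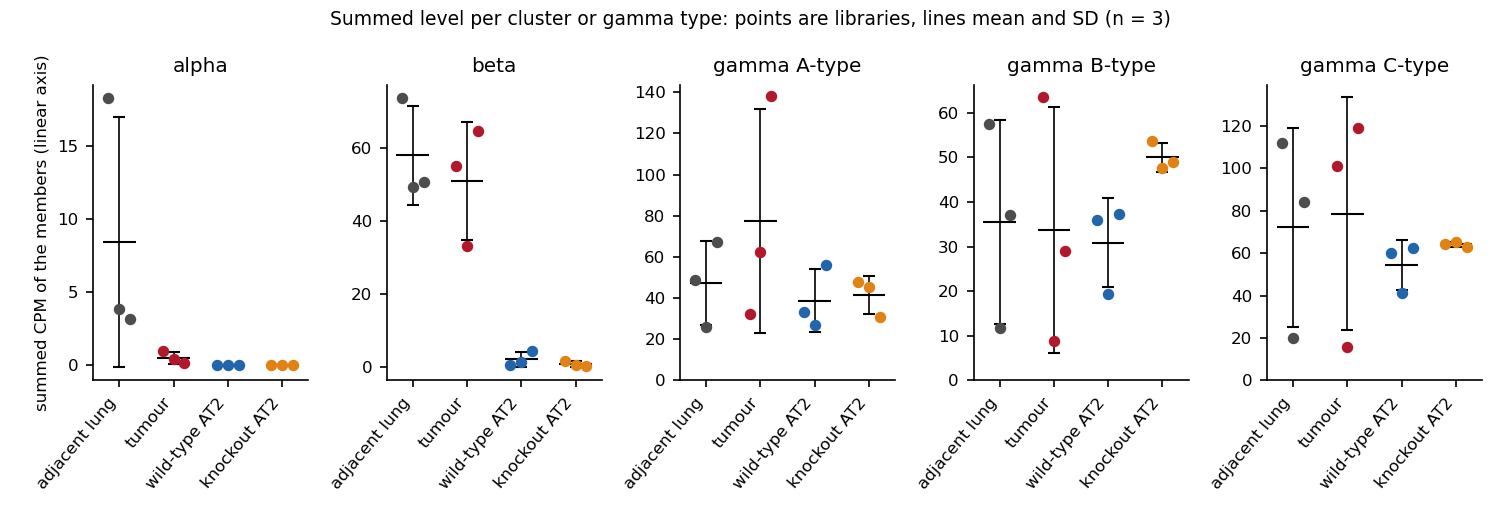
Summed CPM of the alpha and beta genes and of the 3 gamma types in each library (points), with the mean and SD of each group of 3 as black lines, on linear axes that differ between panels. The alpha sum is high only in adjacent lung, the beta sum is near 0 in AT2 cells, and the B-type points of knockout AT2 cells lie above those of wild-type cells.

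In lung, the tumours were set against adjacent tissue of the same mice to describe the tumours. Of the 43 members tested, 2 passed the test, both lower in tumours: Pcdhac2 of the alpha cluster and Pcdhga4 of the gamma cluster. Beside them, 7.18% of the 19995 genes tested were called lower and 2.86% higher. The summed beta and gamma levels differed between tumour and adjacent tissue by less than the spread between libraries, while the estimates of single gamma genes pointed in opposite directions.

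Pcdhac2, a C-type gene of the alpha cluster that serotonergic neurons need to spread their axons, was at 16.9 (102), 3.77 (217) and 2.34 (224) CPM in adjacent lung. In the tumours it was listed at 0 (102) and was at 0.255 (217) and 0.117 (224) CPM. Every adjacent library was above every tumour library, and adjacent 102 held most of the RNA. The log2 fold change was -5.95 ± 1.38 (edgeR, adjusted p = 0.0361). A fit that blocked on the mouse gave -5.51 ± 1.55 (adjusted p = 0.0786) and lost the call. It was also lost with limma-voom (0.074), without both libraries of mouse 217 (0.0763), and without adjacent 102, adjacent 217, adjacent 224, tumour 102 or tumour 224 (0.0631 to 0.117).

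The other alpha genes were close to nothing in lung: Pcdha1 reached 0.726 CPM in adjacent 102 and 0.678 in adjacent 224 and was listed at 0 elsewhere, and Pcdha2 reached 0.497 CPM in tumour 102 and 0.163 in adjacent 102. The alpha sum was 19.3-fold lower in the tumour than in the adjacent tissue of mouse 102, 9.65-fold lower in mouse 217 and 27.0-fold lower in mouse 224. Without Pcdhac2 the log2 ratio of the group means was -1.08 in place of -4.11. In bulk tissue, fewer cells of a type and less RNA per cell cannot be told apart. Markers of several cell types were lower in the same tumours: 6 endothelial markers summed to 298 to 357 CPM against 1563 to 2462 in adjacent lung, 7 fibroblast markers to 462 to 963 against 1322 to 1786, 7 smooth muscle and pericyte markers to 230 to 327 against 468 to 1320, highest in adjacent 102, and 5 mesothelial markers to 8.72 to 19.1 against 75.0 to 110. Airway markers were lower by more: 3 club cell markers summed to 1003 to 2526 CPM in tumours against 16068 to 35665, and 5 ciliated cell markers to 7.56 to 27.2 against 395 to 643. The 6 leukocyte markers summed to 150 to 354 CPM in tumours against 302 to 881, the 6 AT1 markers to 570 to 1948 against 1512 to 2340, and 6 Schwann cell markers to 2.64 to 5.47 against 4.31 to 7.49, with Sox10 and Foxd3 at 0 in all tumours. The 5 general epithelial markers were higher in tumours, at 2677 to 3133 CPM against 1055 to 1086. The part of these markers' cells in the Pcdhac2 difference was not tested.

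The beta genes, which act as adhesion proteins without a shared tail, kept broadly equal sums, with 55.1, 33.1 and 64.7 CPM in tumours 102, 217 and 224 against 73.7, 49.4 and 50.8 CPM in the adjacent tissue. None of the 21 tested passed; 15 had an estimate below 0, with a median of -0.36 against 0.04 over all genes tested. Pcdhb9 was at 9.63, 3.71 and 3.21 CPM in tumours and 13.0, 9.15 and 11.9 CPM in adjacent lung (-1.04 ± 0.51, adjusted p = 0.276). It was lower in the tumour of each mouse, but tumour 102 was above adjacent 217.

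Pcdhb17 was at 8.28, 8.13 and 22.0 CPM in tumours and 11.4, 9.89 and 7.82 CPM in adjacent lung (0.40 ± 0.48), and its estimate turned to -0.24 without tumour 224, the only tumour above all adjacent libraries. Pcdhb22 was at 5.74, 4.71 and 0.991 CPM and at 7.05, 1.63 and 5.25 CPM (-0.28 ± 0.77), overlapping in full. Pcdhb19 differed in another way: it was at 3.23, 3.04 and 2.92 CPM in the tumours, while in adjacent tissue it was listed at 0 in mice 102 and 224 and was at 0.910 CPM in mouse 217. All 3 tumours were alike and above all adjacent libraries. Its estimate of 3.33 ± 1.72 did not pass (adjusted p = 0.300); it passed with limma-voom (0.0368), and without adjacent 217 (0.0204) or both libraries of mouse 217 (0.0332), where the adjacent group is listed at 0.

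The gamma sums followed the mouse as much as the tissue. They were 197, 87.5 and 286 CPM in tumours 102, 217 and 224 and 218, 58.0 and 189 CPM in the adjacent tissue, so both libraries of mouse 217, which also had the negative length trend, were lowest. The difference between the group means was 0.30 on the log2 scale, and it turned to -0.12 without tumour 224 and -0.09 without adjacent 217. Median estimates were -0.22 for A-type, -0.12 for B-type and 0.98 for C-type genes. The C-type median was that of Pcdhgc5 (0.98 ± 0.94, SE). Sums in tumours and adjacent lung were 77.6 ± 54.3 and 47.4 ± 20.6 CPM for A-type genes (SD, n = 3). They were 33.8 ± 27.6 and 35.5 ± 22.9 CPM for B-type genes, and 79.0 ± 55.2 and 72.0 ± 47.0 CPM for C-type genes.

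Pcdhga4 was at 0.668 (102), 1.38 (217) and 0.641 (224) CPM in tumours and 5.87, 2.81 and 6.41 CPM in adjacent lung. It was lower in the tumour of each mouse, and the groups did not overlap. The log2 fold change was -2.49 ± 0.60 (edgeR, adjusted p = 0.0403), and -2.51 ± 0.64 once the mouse was a block (adjusted p = 0.0634), which lost the call. The call was also lost without the filter on low counts (0.058) and without adjacent 102, adjacent 217, adjacent 224, tumour 102 or tumour 224 (0.06 to 0.135). Outside the constant exons, 1038 of its exon bases are also annotated to its neighbour Pcdhgb1, which was at 15.6, 0.0955 and 4.39 CPM in tumours and 8.97, 0.829 and 2.11 CPM in adjacent lung. Reads in those bases could have been counted for either gene.

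Pcdhga9 was the most abundant A-type gene of the tumours. Its level was 11.8, 45.7 and 93.9 CPM in tumours 102, 217 and 224, against 3.51, 12.2 and 16.1 CPM in adjacent lung, a ratio of 3.36, 3.74 and 5.84 within the mice. The tumour was higher in all 3 mice, but adjacent 217 and 224 stood above tumour 102. It did not pass in edgeR without the block (2.25 ± 0.81, adjusted p = 0.132), and passed with it (2.07 ± 0.24, adjusted p = 0.0135) and in DESeq2 without it (0.023). Leaving out tumour 224 lowered the unblocked estimate to 1.44. In tumours 217 and 224 it made up 73.0% and 68.1% of A-type RNA, against 36.3% in tumour 102. Its exons outside the constant ones are shared with no other gene.

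Pcdhgc4 was at 5.71, 4.60 and 14.8 CPM in tumours and 1.27, 0.401 and 3.68 CPM in adjacent lung, ratios of 4.52, 11.5 and 4.02 within the mice. All tumours were above all adjacent libraries. It passed only with the block (2.54 ± 0.45, adjusted p = 0.0282, against 2.23 ± 0.86 and 0.161 without it) and in DESeq2 (0.0328). Sorted AT2 cells held Pcdhgc4 at 11.0 to 13.7 CPM. The 7 AT2 markers summed to 70476 to 222756 CPM in tumours against 20688 to 40565 in adjacent lung. AT2 cells also held Pcdhgb4 at 4.64 to 11.4 CPM and Pcdhga4 at 2.41 to 10.7, both with lung estimates below 0. They held Pcdhga9, with a lung estimate above 0, at 2.59 to 8.09 CPM. The part of cells with AT2 markers in these differences was not tested.

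Pcdhgb4 was at 0.568, 0.175 and 1.09 CPM in tumours and 2.25, 0.642 and 7.58 CPM in adjacent lung. The tumour was lower in each mouse, though tumour 224 was above adjacent 217. It too passed only with the block (-2.23 ± 0.46, adjusted p = 0.0404, against -2.51 ± 1.04 and 0.190 without it) and in DESeq2 (0.0472), and without adjacent 224 the unblocked estimate was -1.24. The block thus called 3 members, Pcdhga9 and Pcdhgc4 higher and Pcdhgb4 lower, none of them among the 2 called without it, beside 14.9% of all genes called.

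Pcdhgb6 did not pass the reported test in AT2 cells or in lung. Its lung direction differed between mice, with tumour over adjacent ratios of 0.696, 0.822 and 1.8 in mice 102, 217 and 224. It was at 12.5, 2.67 and 16.9 CPM in tumours and 17.9, 3.25 and 9.38 CPM in adjacent lung, so the groups overlapped and mouse 217 was lowest in both. The estimate of 0.07 ± 0.78 (adjusted p = 0.977) changed sign with library totals in place of TMM (-0.10) and in 3 leave-one-out fits. Pcdhgc3 was at 88.6, 11.0 and 96.2 CPM in tumours and 109, 17.2 and 76.4 CPM in adjacent lung (-0.05 ± 0.85), with mouse 217 far below the others in both tissues. An antisense gene, BC037039, overlaps exon bases of Pcdhgc3, and the kit does not mark strand. BC037039 had 116 to 489 counts in the lung libraries, against 690 to 8691 for Pcdhgc3. The 2 were closest in mouse 217, at 489 against 690 counts in the tumour and 291 against 1287 in adjacent lung.

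**Figure D4:**
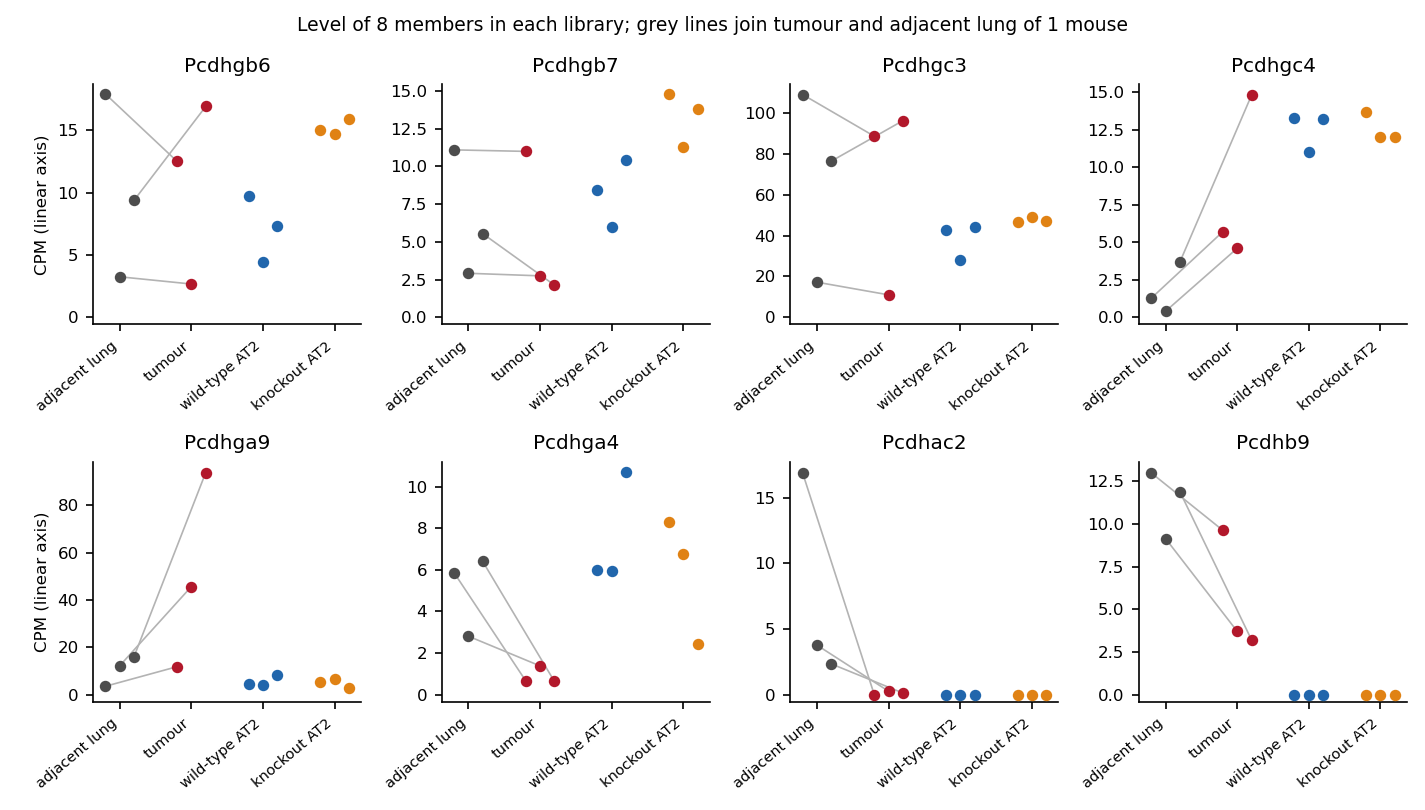
CPM of 8 members in each library (points), on linear axes that differ between panels, with grey lines joining tumour and adjacent lung of the same mouse. Lines go up in all 3 mice for Pcdhga9 and Pcdhgc4 and down for Pcdhga4, Pcdhac2 and Pcdhb9, and the knockout AT2 points lie above the wild-type points for Pcdhgb6 and Pcdhgb7.

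**Figure D5:**
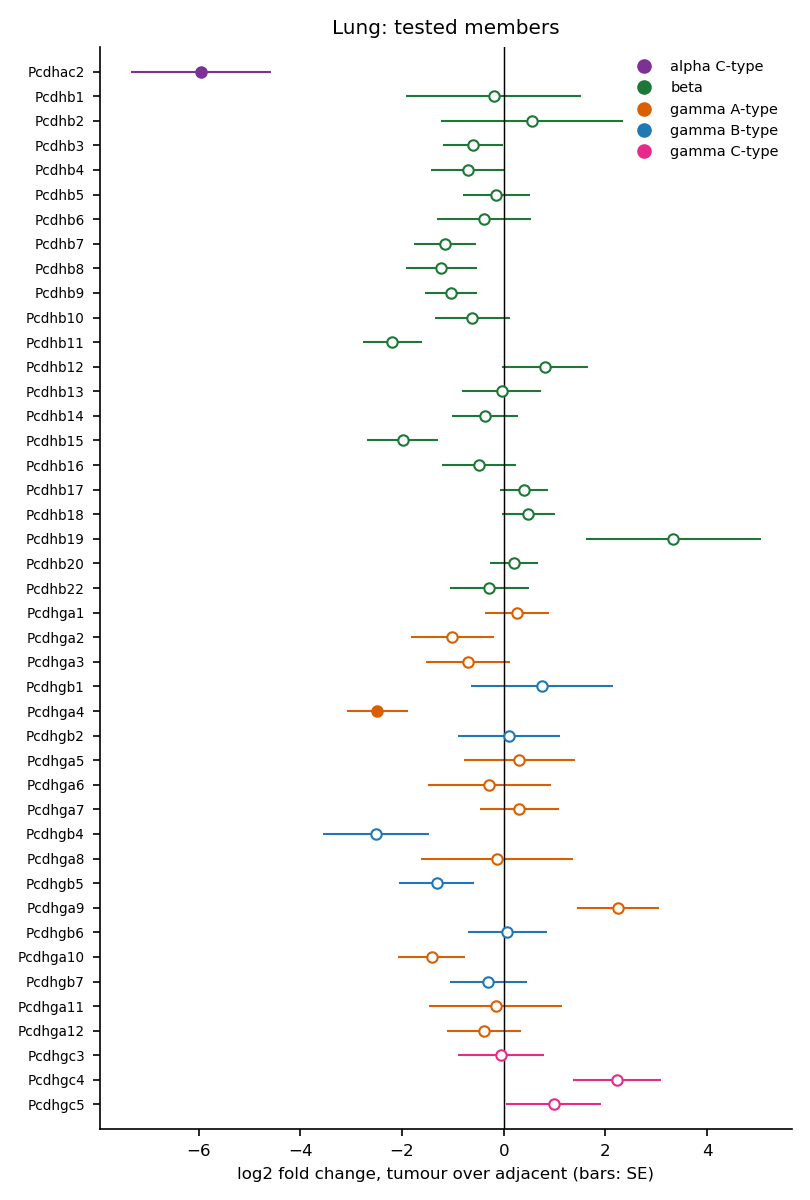
Log2 fold change of tumour over adjacent lung for the 43 tested members, in order along the chromosome, coloured by type, with bars for the SE. Filled circles are the 2 members that passed the test, Pcdhac2 at -5.95 and Pcdhga4 at -2.49; open circles did not pass.

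Estimates were above 0 for 15 of the 43 members, beside 51.9% of all genes. DESeq2 called 7 members, beside 18.6%, limma-voom 2, beside 11.3%, the fit without the filter 1, beside 5.05%, and the fit on counts divided by 4 called 3, beside 13.3%. By non-overlap, tumours were wholly above adjacent lung for 2 of the tested members (Pcdhb19 and Pcdhgc4), beside 11.6% of all genes tested, and wholly below for 5 (Pcdhac2, Pcdhb7, Pcdhb11, Pcdhb15 and Pcdhga4), beside 18.9%. Within mice, 4 members were higher in the tumour of all 3 animals, beside 28.2%, and 10 were lower in all 3, beside 29.3%. Pcdhgb8, a neighbour annotated as a polymorphic pseudogene and so outside the family as defined, had an estimate of -2.91 ± 0.84 in lung (adjusted p = 0.0719).

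Genes that act with or lie beside the protocadherins were taken from 5 lists with 74 genes in all. In lung 6 of the 69 tested passed, all lower in tumours (8.70%, beside 7.18% of all genes tested), and in AT2 cells 0 of 54 did. Of the 12 nonclustered protocadherins, which stand outside the clusters and have no shared exons, 8 were tested in lung and 2 were lower. Pcdh1, an adhesion protein of airway epithelium, was at 58.7, 40.3 and 49.4 CPM in tumours and 227, 78.1 and 176 CPM in adjacent lung (-1.70 ± 0.43, adjusted p = 0.0470). Pcdh18 was at 8.64, 6.25 and 4.96 CPM against 41.9, 20.7 and 21.9 CPM (-2.09 ± 0.42, adjusted p = 0.0243). No tumour reached an adjacent library for either gene. Pcdh17 did not pass (16.3 ± 8.31 against 30.3 ± 13.9 CPM). The list's median was -1.52, and with the mouse as a block 4 were lower, Pcdh12 and Pcdh17 being the others.

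None of the 19 genes of the promoter machinery passed in either table, with a median of 0.21 in lung and -0.07 in AT2 cells. Ctcf, whose protein binds the cluster promoters and the distant enhancers, was at 67.9 ± 7.60 CPM in tumours and 52.9 ± 14.7 in adjacent lung (SD, n = 3), and at 77.0 ± 6.75 in knockout and 84.5 ± 4.62 in wild-type AT2 cells. The cohesin subunit gene Rad21 was at 152 ± 38.6 and 132 ± 30.4 CPM in lung, and the histone methyltransferase gene Ehmt2 at 167 ± 17.5 and 139 ± 33.4. Ctcf and Ehmt2 were higher in the tumour of all 3 mice, as were 28.2% of all genes tested, but their groups overlapped and neither passed.

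Of 19 genes for intracellular partners and for proteases that cut protocadherins, 2 were lower in tumours. Cyfip2, of the WAVE complex that drives actin branching and that protocadherin tails can bind, was at 5.14, 5.46 and 3.60 CPM in tumours against 41.4, 39.3 and 44.2 CPM in adjacent lung (-3.14 ± 0.32, adjusted p = 0.00592). The groups were far apart and each was tight. Wasf3, another WAVE complex gene, was at 3.18 ± 0.993 against 18.5 ± 12.3 CPM (-2.54 ± 0.56, adjusted p = 0.0307). Rac1, the small GTPase that activates this complex and the list's most abundant gene in lung, did not pass (275 ± 90.6 against 465 ± 53.8 CPM), nor did Wasf2 (164 ± 45.1 against 199 ± 71.7 CPM).

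Of 10 classical cadherins and catenins, Cdh5, the cadherin of endothelial junctions, and Cdh11, a cadherin of mesenchymal cells, were lower in tumours, by -2.47 ± 0.42 (adjusted p = 0.0155) and -1.99 ± 0.51 (adjusted p = 0.0488). Cdh1, the epithelial cadherin, did not pass (594 ± 257 against 374 ± 57.2 CPM), nor did Ctnnb1 (1144 ± 407 against 806 ± 120 CPM). None of the 13 tested genes on either side of the clusters passed, with a median of 0.10. Diaph1, a formin gene, was at 165 ± 18.4 and 212 ± 20.4 CPM in tumours and adjacent lung, and Ndufa2, of respiratory complex I, at 103 ± 86.6 and 78.1 ± 61.7; with the block, Fchsd1 was higher (1.02 ± 0.23, adjusted p = 0.0477). The 6 calls fell to 1 (Cyfip2) without tumour 224, to Cyfip2 and Cdh5 without adjacent 102, tumour 102 or adjacent 224, and to Cyfip2, Cdh5 and Pcdh1 without both libraries of mouse 217. The airway, endothelial and fibroblast marker sums given above moved with these genes, and their part was not tested.

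In AT2 cells none of the most abundant genes of these lists passed edgeR's test (adjusted p from 0.984 to 0.997 for the 9 of them that were tested). The catenin gene Ctnnb1 was at 1439 ± 27.6 CPM in knockout and 1413 ± 206 CPM in wild-type cells (SD, n = 3), and Cdh1 at 850 ± 31.4 and 931 ± 131 CPM. Stag2, a cohesin subunit gene, was at 210 ± 2.84 and 232 ± 28.6 CPM, and Ehmt2 at 156 ± 6.55 and 165 ± 53.2 CPM. Of the WAVE pathway, Nckap1 was at 176 ± 10.5 and 184 ± 16.6 CPM and Rac1 at 169 ± 6.83 and 168 ± 31.2 CPM. Of the neighbours, Diaph1 was at 281 ± 10.6 and 294 ± 64.7 CPM and Ik at 72.1 ± 5.95 and 78.4 ± 13.2 CPM. Of the nonclustered protocadherins only Pcdh1 was high enough to be tested. It was at 1.59 ± 0.764 and 1.35 ± 0.282 CPM, and Pcdh9 at 0.576 ± 0.229 and 0.309 ± 0.290 CPM.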

How the data were processed

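Poly-A RNA-seq libraries were made with a NEBNext Ultra kit that does not mark strand, per the labels' protocols. The submitters' processing notes name FastQC, Trimmomatic 0.39, HISAT2, StringTie 1.3.3b, DESeq2 1.28.1 and GRCm38; how alignments were counted, with which strand setting and gene annotation, is not given in the sources used here. The AT2 table was deposited as raw counts per gene. The lung table was deposited as whole numbers that were treated as estimated counts (expected counts): over values of 8 to 40, multiples of 4 were 1.7 to 2.13 times as frequent as values 2 away, against 0.899 to 1.02 times in the AT2 table, so 1 lung count is not 1 read, and no counting limits are given for lung.

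Names, exon lengths and coordinates came from GENCODE M21. Each table was fitted alone in edgeR 4.0.16 (R 4.3.3; filterByExpr, TMM, quasi-likelihood test, group as the only term), with Benjamini-Hochberg adjustment over all genes tested and a threshold of 0.05. The median SE of a log2 fold change was 0.52 in lung and 0.20 in AT2 cells over all genes tested. Each mouse number stands for 1 animal that gave both lung samples, and their deviations correlated (r = 0.273, 0.459 and 0.366 across genes for mice 102, 217 and 224), so the mouse numbers pair them; the labels state no paired fit, and the block is an alternative. The mice of the AT2 groups are separate animals by number. The members, gene lists and markers were chosen with earlier results of these data known. The results of a pair of marker lists are not reported here. Values in every library are given for Pcdhgb6, the 3 members of highest mean CPM per cluster, the called members, and the 3 tested members of largest fold in each direction; Pcdhgb7, Pcdhgb1, Pcdhga10 and Pcdhgb8, and members named only within a count or a ranking, were added after their values were seen. From the lists, called genes and the 2 most abundant per list are given; Ctcf and Fchsd1 were added after their values were seen. The alternatives covered normalization, test (DESeq2 1.42.0, limma 3.58.1), filter, left-out libraries and block; lung counts divided by 4 were added after seeing the data.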

Additional observations from a re-analysis of the deposited data

How the results depend on the processing

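The counts of called members depended on the test and on single libraries. In lung, 2 of the 43 members tested were called in the reported fit, beside 2007 of 19995 genes tested. DESeq2's Wald test called 7 (2 higher and 5 lower, beside 18.6% of all genes). Without the filter on low counts 1 was called (beside 5.05%). Leaving out single libraries gave 0 to 2 of the 44 to 46 members tested, beside 598 to 1854 of the 20776 to 21310 genes tested. With the mouse as a replicate block 3 were called (beside 14.9%), none shared with the reported 2. With lung counts divided by 4, an alternative chosen after seeing the data, 3 were called (beside 13.3%). Among the 69 list genes tested in lung, 6 were called, beside 2007 of 19995 genes tested. The count was 10 by DESeq2 (beside 3729, or 18.6% of all genes) and 9 with the block (beside 2980, or 14.9%). It was 3 of 70 without both libraries of mouse 217 (beside 847 of 20518 genes). Leaving out single libraries gave 1 to 5 of the 69 to 70 tested (beside 598 to 1854 of 20776 to 21310 genes). In AT2 cells 0 members were called, and 1 (Pcdhgb6) without the filter; leaving out single libraries gave 0 throughout. The alpha log2 ratio in lung was -4.11, and -1.08 without Pcdhac2. Estimates near 0 changed sign: Pcdhgb6 in lung with library totals alone (-0.10), which moved the median of all genes from 0.04 to -0.18, and without tumour 102 (-0.11), adjacent 217 (-0.35) or tumour 224 (-0.42). Others were Pcdhb17 without tumour 224 (-0.24), Pcdhb22 without adjacent 102 (0.20) or tumour 224 (0.17), and Pcdhgc3 without adjacent 102 (0.50), tumour 217 (0.39) or adjacent 224 (0.05). In AT2 cells, Pcdhgc4 did so without wild-type 177 (-0.08) or knockout 175 (-0.06), and Pcdhga9 without wild-type 190 (0.16) or knockout 191 (0.08). The cause was not tested. Over all left-out lung libraries the ranges were -0.42 to 0.77 for Pcdhgb6, -0.24 to 0.59 for Pcdhb17, -0.70 to 0.20 for Pcdhb22 and -0.50 to 0.50 for Pcdhgc3; in AT2 cells they were -0.08 to 0.05 for Pcdhgc4 and -0.50 to 0.16 for Pcdhga9. Estimates that kept their sign also moved by over 1.5 times. In lung these were Pcdhac2 (-7.05 to -4.61), Pcdhb9 (-1.74 to -0.76), Pcdhga9 (1.44 to 2.68), Pcdhgc4 (1.53 to 3.33), Pcdhgb4 (-3.22 to -1.24) and Pcdhb19 (2.72 to 10.77). In AT2 cells they were Pcdhgb6 (0.83 to 1.37), Pcdhga2 (0.56 to 1.69), Pcdhgb5 (0.43 to 1.43), Pcdhgc3 (0.13 to 0.43), Pcdhga4 (-0.71 to -0.01) and Pcdhb22 (-2.92 to -0.32). Members at 1 count or more numbered 44.3 per tumour on average, against 40.7 at 10 counts.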
